A study of Mus musculus with 9 samples.

Results

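10 genes that mark motor neurons or their subtypes were followed across the dorsal, intermediate and ventral spinal cord of young mice: Isl1, Calca, Calcb, Chodl, Mmp9, Spp1, Esrrg, Esrrb, Pappa and Hspb8. They were found as all probe sets whose gene symbol in the platform annotation is one of these 10 names. This gave 18 probe sets of 8 genes, out of 45037 probe sets and 18193 genes on the array. Calca and Spp1 were matched to no probe set and were not analysed here. Cord tissue of 3 mice, taken on postnatal day 6, was divided into dorsal, intermediate and ventral parts, 1 array each, which makes 9 arrays and n = 3 per region. All animals, and therefore all 3 regions, carried the GAD65-GFP genotype, in which GABAergic cells are lit up by a fluorescent reporter under control of the Gad2 (GAD65) promoter. The labels mention no sorting of cells and no position of the cuts between regions, and the values are treated as those of whole pieces of tissue. The series asks about dystonia genes in spinal inhibitory circuits, and motor neurons are the cells on which those circuits act.

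Motor neurons sit in the ventral horn and send their axons to muscle. Alpha motor neurons drive the force-producing fibres and are graded from fast to slow, whereas gamma motor neurons set the tension of muscle spindles. The LIM homeodomain factor Isl1 is needed to specify motor neurons, but it is also made by a class of dorsal interneurons and by the preganglionic neurons of the intermediate column. Chodl, Calca, Calcb and Mmp9 are used as markers of fast alpha motor neurons, and the orphan nuclear receptors Esrrg and Esrrb as markers of gamma motor neurons and of a slow programme. In a bulk piece, fewer cells of a type and less RNA per cell cannot be told apart.

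Values are the deposited expression values, read as log2, and a difference of 1 is a change by a factor of 2 if that reading is right. The lowest value of the table, 2.15, is called the floor, and 36% to 36.3% of the probe sets of an array lay within 0.01 of it. Array medians ran from 3.66 to 3.75. Correlations over probe sets were 0.998 or above within a region and 0.9821 to 0.9857 between dorsal and ventral arrays. Each gene stands for its brightest probe set. Errors after a difference are standard errors of a limma model with region and animal, and adjusted p-values are those of limma with Benjamini-Hochberg adjustment over 13959 genes, called below 0.05.

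The genes fell into 3 patterns along the dorsoventral axis. Isl1 and Esrrg were lower in dorsal than in both other regions, and their ventral and intermediate values did not differ by the test, although every ventral Esrrg value lay slightly above every intermediate one. Calcb, Chodl and Hspb8 made most or all of their rise between intermediate and ventral pieces, and Pappa rose by similar amounts at each step. Mmp9 and Esrrb did not pass the test in any pair of regions. Between ventral and dorsal pieces, 6 of the 8 genes were higher in ventral ones, where 28.2% of all genes tested were called higher, 24.5% lower and 52.8% either way. Between ventral and intermediate pieces 4 of 8 were higher, against 24.9% of all genes (23.4% lower, 48.2% either way), and between intermediate and dorsal pieces 4 of 8 were higher, against 15.9% (14.2% lower, 30.1% either way). The 3 arrays of one region did not overlap with those of the other for 7 of 8 genes in each of these pairs, the exceptions being Mmp9, Isl1 and Esrrb in that order, while this held for 60%, 57.7% and 42.3% of all genes. The median difference of the 8 genes was 3.16 from dorsal to ventral, 1.06 from intermediate to ventral and 0.79 from dorsal to intermediate, while the medians over all genes tested lay at 2e-04 or 0. The genes were chosen with earlier results of these data known, so these counts and medians describe them and test no enrichment.

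**Figure D1:**
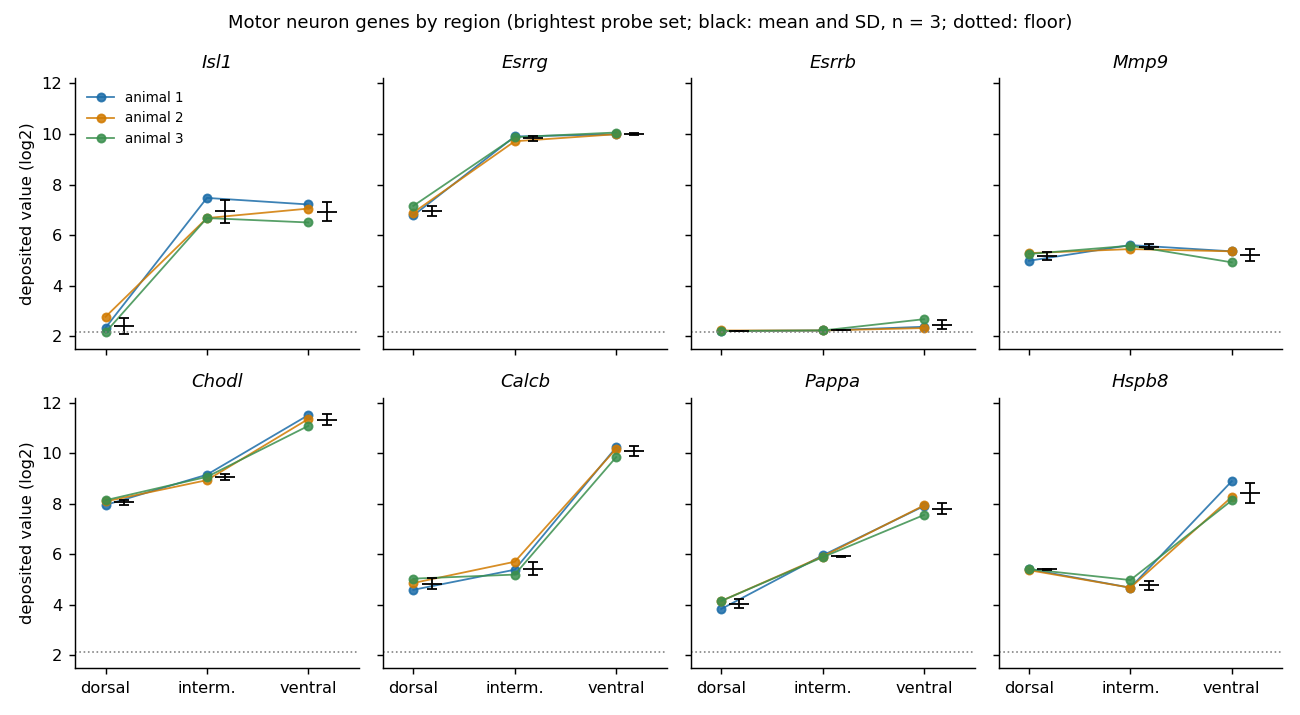
Deposited log2 value (vertical axis) of the brightest probe set of each of the 8 measured genes in dorsal, intermediate and ventral pieces (horizontal axis); coloured points joined by lines are the 3 animals, black marks the mean and SD of each region, and the dotted line the floor at 2.15. Isl1 and Esrrg make all or most of their rise between dorsal and intermediate pieces, Calcb and Hspb8 rise between intermediate and ventral pieces, and Mmp9 lies between 4.92 and 5.60 throughout.

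Sequences of promoters are shown for Isl1, Chodl and Hspb8, genes that were all higher in ventral than in dorsal pieces although by different paths and that have a single start in the RefSeq promoter table. Of the 10 genes, 7 had an entry there, in 12 windows of 300 bases that run from 250 bases before the start of the gene to 50 after it; Calcb, Mmp9 and Pappa had none. Capitals mark matches, on either strand, to the letters TATANAA (core of the TATA box), CCAAT (a box of that name), GGGCGG (the GC box), TAATTA (a core bound by many homeodomain factors) and AAGGTCA (an element bound by estrogen-related receptors). The sequences are from GRCm38.p6, written 5′ to 3′ on the strand of the gene.
Isl1, chr13:116309639-116309938, minus strand: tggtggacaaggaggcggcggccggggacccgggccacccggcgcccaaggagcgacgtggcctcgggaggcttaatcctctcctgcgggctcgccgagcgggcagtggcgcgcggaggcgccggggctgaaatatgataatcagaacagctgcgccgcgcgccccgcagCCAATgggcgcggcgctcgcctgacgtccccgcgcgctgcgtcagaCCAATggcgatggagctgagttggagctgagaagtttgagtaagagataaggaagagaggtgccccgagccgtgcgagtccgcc
Chodl, chr16:78930698-78930997, plus strand: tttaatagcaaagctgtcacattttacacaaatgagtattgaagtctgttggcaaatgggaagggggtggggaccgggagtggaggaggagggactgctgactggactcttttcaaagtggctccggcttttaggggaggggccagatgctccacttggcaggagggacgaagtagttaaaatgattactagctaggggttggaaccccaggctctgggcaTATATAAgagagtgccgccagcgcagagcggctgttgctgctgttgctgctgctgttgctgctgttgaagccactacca
Hspb8, chr5:116422815-116423114, minus strand: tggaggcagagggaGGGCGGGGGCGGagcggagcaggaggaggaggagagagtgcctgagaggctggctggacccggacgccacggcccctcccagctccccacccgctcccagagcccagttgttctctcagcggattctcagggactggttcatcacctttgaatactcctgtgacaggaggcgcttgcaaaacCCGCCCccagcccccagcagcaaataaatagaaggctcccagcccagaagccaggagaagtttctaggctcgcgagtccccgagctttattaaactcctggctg
The Isl1 window held 2 CCAAT matches, at positions -80 and -34 from the start, the Chodl window 1 TATANAA match at position -29, and the Hspb8 window 3 GGGCGG matches at -236, -230 and -54. Among all 32851 promoter windows of this length, 37.4% held CCAAT, 11.3% TATANAA, 35.7% GGGCGG, 5.29% TAATTA and 4.72% AAGGTCA. Of the 12 windows of the listed genes, 5 held CCAAT, 2 TATANAA, 3 GGGCGG and 1 (a window of Spp1) TAATTA, and no AAGGTCA was found in them. The matches describe letters in these windows and show no bound site.

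Isl1, the LIM homeodomain factor, read 2.33, 2.76 and 2.15 in the dorsal pieces of animals 1, 2 and 3. It read 7.47, 6.67 and 6.67 in the intermediate and 7.21, 7.05 and 6.50 in the ventral pieces. All intermediate and ventral arrays lay far above all dorsal ones, of which 1 was at the floor, and the intermediate and ventral values overlapped. Intermediate pieces exceeded dorsal ones by 4.53 ± 0.24 (adjusted p = 0.000611), at least 23.0-fold, and ventral pieces exceeded them by 4.51 ± 0.24 (adjusted p = 0.000163), at least 22.7-fold. These folds are lower bounds because the dorsal level is near the floor. The ventral and intermediate pieces differed by -0.02 ± 0.24 (95% interval -0.64 to 0.60, adjusted p = 1).

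Esrrg, the estrogen-related receptor gamma, behaved much like Isl1 at a level well above the floor. It read 6.78, 6.89 and 7.15 in dorsal, 9.90, 9.71 and 9.88 in intermediate and 9.99, 9.99 and 10.06 in ventral pieces. The ventral values were the highest on every animal, but the gap to the intermediate ones was small. The rise from dorsal to intermediate pieces was 2.89 ± 0.09 (7.41-fold, adjusted p = 0.000217), and from dorsal to ventral 3.07 ± 0.09 (8.41-fold, adjusted p = 4.42e-05). Ventral pieces differed from intermediate ones by 0.18 ± 0.09 (95% interval -0.04 to 0.41, adjusted p = 0.152), which did not pass the test. On the log2 scale, the intermediate pieces had covered 94.0% of the way from the dorsal to the ventral level (97.3%, 91.0% and 93.7% in the 3 animals).

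Esrrb, the beta member of the same receptor family, stayed near the floor. It read 2.20, 2.22 and 2.20 in dorsal pieces, 2.22 on all 3 intermediate arrays and 2.37, 2.32 and 2.67 in ventral ones. Every ventral value was above every other value, and the 3 identical intermediate values leave the spread there unmeasured. The ventral excess over dorsal pieces was 0.24 ± 0.08 (adjusted p = 0.066) and over intermediate pieces 0.23 ± 0.08 (adjusted p = 0.0838). Without the ventral array of animal 3, the highest of the 9, the excess shrank to 0.13 over dorsal and 0.12 over intermediate pieces and passed the test (adjusted p = 0.0138 and 0.0211), as did that over dorsal pieces without the animal as a block (adjusted p = 0.0466) or with arrays centred on their medians (0.29, adjusted p = 0.0279). At this signal the arrays give little on Esrrb, and the pair of gamma or slow markers is in effect represented by Esrrg.

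Of the fast alpha markers, Calcb, which encodes the beta form of calcitonin gene-related peptide (CGRP), had the largest ventral excess over intermediate pieces of the 8 genes. Its values were 4.59, 4.86 and 5.03 in dorsal, 5.39, 5.70 and 5.19 in intermediate and 10.23, 10.18 and 9.85 in ventral pieces. The ventral arrays stood apart from the 6 others, which lay close together without overlap between dorsal and intermediate. Ventral exceeded dorsal pieces by 5.26 ± 0.18 (38.2-fold, adjusted p = 6.34e-05) and intermediate pieces by 4.66 ± 0.18 (25.2-fold, adjusted p = 0.000181). The intermediate pieces read 0.60 ± 0.18 above the dorsal ones, a difference that did not pass (adjusted p = 0.0705). That p fell below the threshold without the animal block (adjusted p = 0.0418), with arrays centred on their medians (0.026), with quantile normalization (0.0471), with the filter at the 50th percentile (0.0317) and without the dorsal array of animal 3 (0.0172), and rose to as much as 0.36 with other arrays left out.

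Chodl, a membrane protein of the C-type lectin family, was the fast marker with the most graded profile. It read 7.95, 8.09 and 8.14 in dorsal, 9.15, 8.93 and 9.07 in intermediate and 11.51, 11.36 and 11.08 in ventral pieces. The 3 regions did not overlap, and the order was the same in every animal. Ventral pieces were 3.26 ± 0.13 above dorsal ones (9.56-fold, adjusted p = 8.25e-05) and 2.27 ± 0.13 above intermediate ones (4.81-fold, adjusted p = 0.000337). The intermediate excess over dorsal pieces was 0.99 ± 0.13 (1.99-fold, adjusted p = 0.00615), and its call was lost without animal 1 (0.88, adjusted p = 0.0596) and without animal 2 (1.06, adjusted p = 0.0681). The intermediate pieces had covered 30.4% of the way from dorsal to ventral for Chodl and 11.4% for Calcb.

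Mmp9, matrix metalloproteinase 9 or gelatinase B, a marker of fast motor neurons in the adult cord, did not share this profile. It read 4.98, 5.28 and 5.25 in dorsal, 5.60, 5.44 and 5.58 in intermediate and 5.35, 5.35 and 4.92 in ventral pieces. The dorsal and ventral values overlapped, and the intermediate ones lay above both. Ventral and dorsal pieces differed by 0.04 ± 0.16 (95% interval -0.37 to 0.45, adjusted p = 0.921), so that an excess as large as that of Chodl lies outside the interval for this probe set. The intermediate pieces read 0.37 ± 0.16 above dorsal and 0.33 above ventral ones (adjusted p = 0.157 for both), and neither passed.

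The contrast between the fast markers Chodl and Calcb and the gamma or slow marker Esrrg therefore lay in where along the axis the rise took place. Which cells gave the Esrrg signal of the intermediate pieces was not tested. From intermediate to ventral pieces Chodl rose more than Esrrg in every animal, by 2.27, 2.14 and 1.83 (mean 2.08 ± 0.23, SD), and Calcb more than Esrrg by 4.76, 4.19 and 4.47 (mean 4.47 ± 0.28, SD). From dorsal to intermediate pieces the order was turned, with Esrrg ahead of Chodl by a mean step difference of -1.90 ± 0.10 (SD, Chodl minus Esrrg) and ahead of Calcb by -2.29 ± 0.29 (SD, Calcb minus Esrrg). Isl1 showed the same difference from the fast markers, with means of 2.29 ± 0.30 (SD) for Chodl and 4.68 ± 0.52 (SD) for Calcb at the ventral step. An exact sign-flip permutation test over the 3 animals gave a two-sided p = 0.25 for each of 10 such comparisons, also 0.25 after adjustment, which is the smallest value that 3 pairs allow. The contrast does not extend to all markers, since Mmp9 and Esrrb did not pass the test at either step. Nor did the gamma and slow markers outside the members share the profile of Esrrg. Of 7 tested, 3 were higher and 3 lower in ventral than in intermediate pieces. In intermediate against dorsal pieces 1 was higher, and 0 without animal 1 or animal 3. Creb5 and Wnt7a were among the 3 higher in ventral than in intermediate pieces, by 1.71 ± 0.11 and 0.55 ± 0.04 (adjusted p = 0.000453 and 0.000572).

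**Figure D2:**
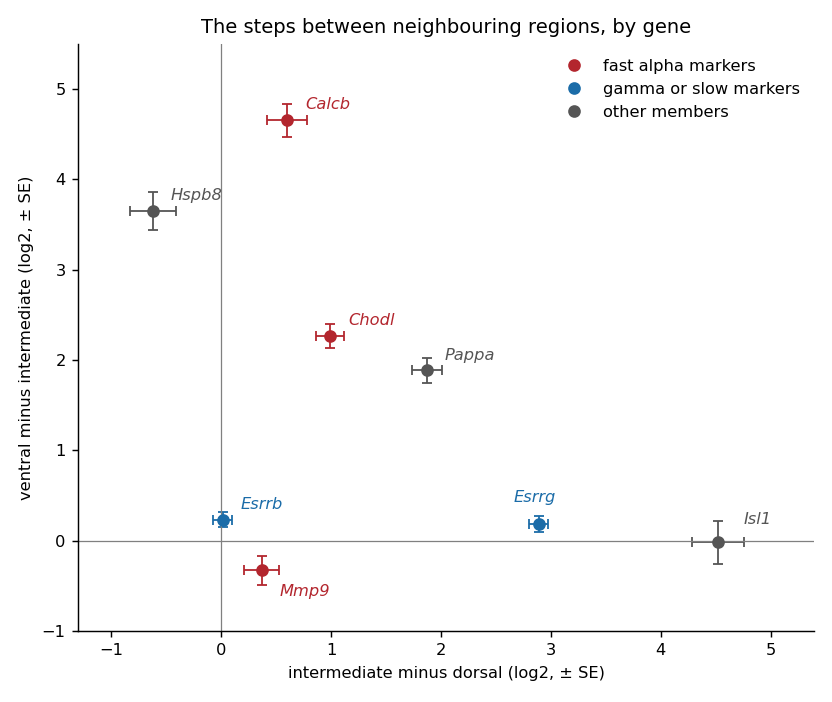
Difference between intermediate and dorsal pieces (horizontal axis, log2) against that between ventral and intermediate pieces (vertical axis, log2) for the 8 genes, with the standard error of the model as bars; red marks the fast alpha markers, blue the gamma or slow markers. Isl1 (4.53 and -0.02) and Esrrg (2.89 and 0.18) lie along the horizontal axis, Calcb (0.60 and 4.66) and Hspb8 (-0.62 and 3.65) along the vertical one, and Pappa (1.87 and 1.88) between them.

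Pappa encodes pappalysin, a protease that cleaves IGF-binding proteins and so frees insulin-like growth factors. It read 3.83, 4.15 and 4.15 in dorsal, 5.95, 5.91 and 5.88 in intermediate and 7.91, 7.93 and 7.55 in ventral pieces. The regions did not overlap, and the steps were nearly equal. They amounted to 1.87 ± 0.13 from dorsal to intermediate pieces (3.66-fold, adjusted p = 0.00121) and 1.88 ± 0.13 from intermediate to ventral ones (3.69-fold, adjusted p = 0.000549), together 3.76 ± 0.13 (13.5-fold, adjusted p = 6.76e-05). The intermediate pieces had covered 49.9% of the way, and 46.6% to 52.1% in single animals.

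Hspb8 encodes a small heat shock protein that works with the co-chaperone Bag3 and is mutated in inherited motor neuropathies. It read 5.41, 5.37 and 5.41 in dorsal, 4.68, 4.68 and 4.98 in intermediate and 8.89, 8.27 and 8.13 in ventral pieces. Ventral arrays were the highest and intermediate arrays the lowest, with no overlap. Ventral pieces exceeded dorsal ones by 3.03 ± 0.21 (8.19-fold, adjusted p = 0.000339) and intermediate ones by 3.65 ± 0.21 (12.6-fold, adjusted p = 0.000345). Intermediate pieces read -0.62 ± 0.21 against dorsal ones, which did not pass (adjusted p = 0.0924) but did with the filter at the 50th percentile (adjusted p = 0.044) and without the ventral array of animal 1 (0.027).

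Probe sets of the same gene did not all respond. Of the 18 probe sets, 15 passed the filter on dim probe sets, 3 (of Esrrb, Isl1 and Mmp9) were at the floor on all 9 arrays, and 8 never reached a value of 3. The filter lay at 2.14606, barely above the lowest value of 2.146, so that an Esrrg and a Pappa probe set at the floor on 8 of 9 arrays passed. Fitted over all 31526 probe sets that passed, 9 of the 15 were called in at least 1 pair of regions, against 50.2% of all. The dimmer of the responding Esrrg probe sets gave a smaller rise of the same shape, 0.77 ± 0.13 from dorsal to intermediate (adjusted p = 0.0167) and 0.09 ± 0.13 from intermediate to ventral (adjusted p = 0.679). The dimmer of the responding Pappa probe sets rose by 0.86 ± 0.16 (adjusted p = 0.0228) and then by 1.73 ± 0.16 (adjusted p = 0.00169), so that its earlier step was the smaller. A dim Hspb8 probe set read 2.16 in dorsal and intermediate pieces and 3.57, 4.31 and 3.23 in ventral ones, a difference of 1.55 ± 0.24 from dorsal (adjusted p = 0.00669). Chodl and Calcb had a single probe set each, and for Isl1 and Mmp9 the result rests on 1 probe set, since the other stood at the floor.

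**Figure D3:**
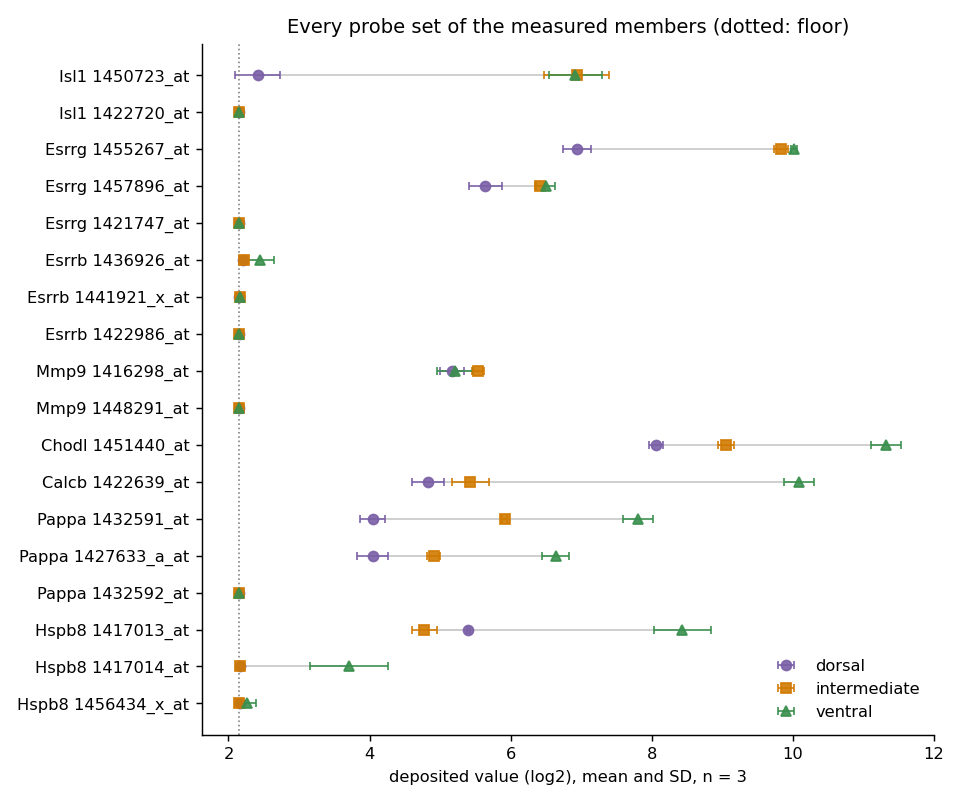
Mean deposited log2 value (horizontal axis, with SD, n = 3) of each of the 18 probe sets (vertical axis, by gene) in dorsal (circles), intermediate (squares) and ventral (triangles) pieces; the dotted line is the floor. The second responding probe sets of Esrrg and Pappa keep the order of the brightest ones, that of Hspb8 is raised in ventral pieces, and the other dim ones lie close to 2.15.

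Over the 9 arrays, the members themselves correlated by pattern: Isl1 with Esrrg at Pearson r = 0.98, Calcb with Chodl at 0.98 and with Hspb8 at 0.96, Chodl with Pappa at 0.97, but Isl1 with Hspb8 at 0.35 and Mmp9 with Calcb at -0.21. These are descriptions of 3 regions of 3 arrays that share their animals. Among genes whose values spanned at least 1 log2 unit, the nearest to Isl1 were Fam216b (r = 0.99), Pwwp3b (0.99) and Dgkk (0.98), and the nearest to Esrrg were Tm4sf1 (0.999), Dnajc15 (0.996) and the guidance gene Sema3a. Calcb was followed most closely by Rhou, Amz1 and Snx18, Chodl by Lims2, Tns1 and Zfp101, Pappa by Sulf2, Papss2 and Amot, and Hspb8 by Prss35, Myo1e and Fut10, with r from 0.993 (Fut10) to 0.9965 (Rhou and Lims2). For Mmp9 the nearest were Nfatc2 (0.93), Cables2 (0.87) and Chid1 (0.86), and for the near-floor Esrrb they were Uts2 (0.99), Fam83d and Sycp3 (0.97 each).

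The genes that define motor neurons by their transmitter gave no signal to set beside these values. Chat, the enzyme that makes acetylcholine, Slc18a3, its vesicular transporter, and Slc5a7, the choline transporter, were at the floor of 2.15 on all 9 arrays, in ventral pieces too, as was Lhx3, the partner of Isl1 in specifying motor neurons. Mnx1, a homeodomain factor of motor neurons, was at the floor in all dorsal and intermediate pieces and read 2.35, 3.19 and 2.30 in ventral ones, a difference that did not pass (0.47 ± 0.22, adjusted p = 0.139). The label of motor neuron genes thus rests on knowledge of the members and not on these cholinergic markers. Of the 12 genes of the motor neuron core list 8 were tested, and 3 were higher and 1 lower in ventral than in dorsal pieces, the same numbers as against intermediate pieces. Over all genes tested, 28.2% were called higher and 24.5% lower in ventral than in dorsal pieces. The 4 genes of the list that did not pass, Lhx3, Isl2, Lhx4 and Mnx1, lay at or near the floor, with 3.19 (Mnx1) as their highest value. Prph, peripherin, an intermediate filament of motor and sensory neurons, read 9.41 ± 0.24 (SD) in ventral against 2.15 in dorsal and 2.26 in intermediate pieces, a difference of 7.26 and 7.15 (adjusted p = 2.13e-05 and 5.49e-05). These are lower bounds, since all dorsal Prph values were at the floor and the intermediate ones just above it. Ret, the receptor of GDNF-family factors, was higher by 1.14 ± 0.11 in ventral than in dorsal pieces, and Ache, acetylcholinesterase, was lower by -0.77 ± 0.17. The call of Ache was lost without animal 1 (adjusted p = 0.103) or animal 3 (0.104).

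Other subtype markers did not share 1 direction within their lists between ventral and dorsal pieces. Which cells gave these signals in the bulk pieces was not tested. Of 5 tested alpha and fast markers outside the members, Dlk1, a Notch-family ligand of fast motor neurons, was higher in ventral than in dorsal pieces by 2.06 ± 0.08, Rbfox3, the neuronal protein NeuN that most neurons make, was lower by -1.57 ± 0.04, and 3 did not pass; without animal 1, 2 were lower. Vipr2 and Kcnn3 of this list were at the floor throughout, and so was Kcng4. Of 7 tested gamma and slow markers, 4 were higher and 3 lower in ventral than in dorsal pieces, and without animal 1 only 2 were higher. Creb5, a transcription factor, was higher by 1.82 ± 0.11, whereas the serotonin receptor gene Htr1d was lower by -2.33 ± 0.45 and the phospholipase gene Plch1 by -0.94 ± 0.11. The call of Htr1d was lost without animal 3 (adjusted p = 0.117). By step, Creb5 rose by 0.11 ± 0.11 from dorsal to intermediate and by 1.71 ± 0.11 from intermediate to ventral pieces (adjusted p = 0.000453). Its rise thus lay at the step of Chodl and Calcb and not at that of Esrrg. Of the 7, 3 were higher and 3 lower in ventral than in intermediate pieces, and 2 higher without any 1 of the animals. In intermediate against dorsal pieces 1 was higher. Of 5 visceral motor neuron markers, 2 were higher (Zeb2 and Gnb4) and 2 lower (Mme and Fbn2) in ventral than in dorsal pieces. Without animal 3 the counts were 1 and 1, so that this list gave no common direction in this contrast. Against intermediate pieces 4 were higher in ventral ones, and Nos1 was lower by -0.26 ± 0.05 (adjusted p = 0.00858). Without animal 2 or animal 3 these counts were 1 higher and 0 lower. In intermediate against dorsal pieces 2 were higher and 2 lower, with Nos1 higher by 0.20 ± 0.05 (adjusted p = 0.0343). Without animal 2 or animal 3, 0 were higher. Among 9 motor column transcription factors, 4 were higher, with Mecom at 2.15 ± 0.06 and Hoxd10 at 1.48 ± 0.07, and 1 lower, Lhx1 at -2.63 ± 0.09.

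**Figure D4:**
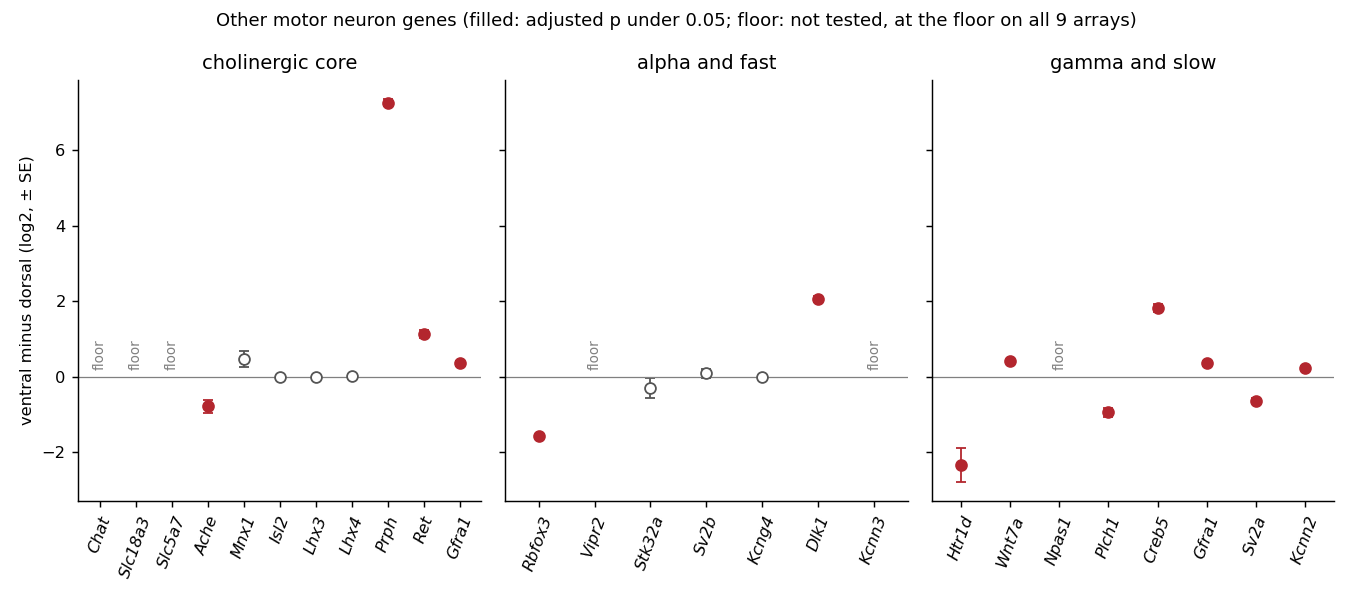
Difference between ventral and dorsal pieces (vertical axis, log2, with the standard error of the model) of further motor neuron genes (horizontal axis) in the cholinergic core, alpha and fast, and gamma and slow lists; filled points passed the limma test, open points did not, and "floor" marks genes left out because all 9 arrays stood at the lowest value. Prph (7.26, a lower bound), Dlk1 (2.06) and Creb5 (1.82) are higher in ventral pieces, and Rbfox3 (-1.57) and Htr1d (-2.33) lower.

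The partners of the members were read in the same contrast of ventral with dorsal pieces. Of 9 Isl1 complex partners, 1 was higher (the LIM-only gene Lmo2, 0.52 ± 0.04) and 2 lower (the LIM-binding cofactors Ldb2, -1.82 ± 0.08, and Ldb1, -0.39 ± 0.05), and without animal 2 the counts were 2 and 1. Of 6 tested CGRP and amylin receptor genes, 2 were higher and 1 lower, and without animal 2, 2 were lower. Ramp1, the subunit that turns the receptor Calcrl into a CGRP receptor, was higher by 1.31 ± 0.07. The other subunits went apart, with Ramp2 higher by 0.43 ± 0.06 and Ramp3 lower by -3.47 ± 0.09. Of 10 cofactors and targets of the estrogen-related receptors, 4 were higher and 3 lower. Ppargc1a, the coactivator PGC-1 alpha, read 9.85 in dorsal, 11.07 in intermediate and 10.42 in ventral pieces, 1.22 ± 0.04 higher in intermediate than in dorsal ones (adjusted p = 0.000227). It was thus highest in the intermediate pieces, and the ventral ones read -0.65 ± 0.04 against them (adjusted p = 0.000343). Esrrg read 9.83 in intermediate and 10.01 in ventral pieces. Of the 10 cofactors and targets, 0 were higher and 5 lower in ventral than in intermediate pieces, and 2 lower without animal 3. A link between Ppargc1a and Esrrg was not tested.

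Of 9 pappalysin and IGF axis genes, 2 were higher in ventral than in dorsal pieces and 2 lower, and the lower ones fell to 1 without animal 1 and to none without animal 2. Igfbp4, a binding protein that pappalysin cleaves, was higher by 1.31 ± 0.09. Of the other binding proteins in the list, Igfbp2 was higher by 0.76 ± 0.06 and Igfbp5 did not pass (0.12 ± 0.08, adjusted p = 0.263). Stc1, a stanniocalcin and thus of a family that inhibits pappalysins, was lower by -1.10 ± 0.16, though not without animal 2 (adjusted p = 0.0563). Of 7 tested chaperone genes around Hspb8, Bag3 was higher by 0.90 ± 0.09 and Sqstm1 and Stub1 were lower by -0.47 ± 0.07 and -0.24 ± 0.03; leaving out animal 1 gave 2 higher and 1 lower, and leaving out animal 3 gave 1 of each. Of 7 tested genes of the gelatinase system, 4 were higher and 2 lower, and without animal 2 or animal 3 only 1 was lower. The inhibitor genes moved apart, with Timp3 at 1.19 ± 0.10 and Timp2 at -1.13 ± 0.05, although another probe set of Timp2 gave 0.51. Of 7 tested receptor genes for osteopontin, the product of Spp1, 5 were higher, led by the integrin Itgav at 1.08 ± 0.03, of which another probe set gave -0.24.

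Since Isl1 and the peptide genes are made by other cells too, markers of those cells are given beside them. Among 6 interneuron genes listed for Isl1- or Tlx3-expressing classes, 4 were lower in ventral than in dorsal pieces and 1 higher. Prrxl1 was lower by -6.75 ± 0.33 and Pou4f1 by -4.49 ± 0.23. The higher one was Otp, by 3.09 ± 0.17, which is not particular to these classes. Without animal 3 only 2 were lower. Otp, a homeodomain factor of several interneuron classes, read 4.79 in dorsal, 8.81 in intermediate and 7.88 in ventral pieces, and so was low in dorsal pieces as Isl1 was. Of the markers of neurons that contact the cerebrospinal fluid, Pkd2l1 was higher in ventral than in dorsal pieces by 0.76 ± 0.04, at 2.91 against the floor, Gata2 did not pass (0.38 ± 0.26, adjusted p = 0.28), and Pkd1l2 and Gata3 were at the floor. Of the sensory ganglion markers, Scn10a, Trpv1 and Avil were at the floor on all arrays and Tac1, which dorsal horn neurons also make, was lower in ventral than in dorsal pieces by -3.83 ± 0.06. The summed linear level of the 6 sensory genes with a probe set, 5540 to 6090 in dorsal, 3190 to 3680 in intermediate and 425 to 452 in ventral pieces, was nearly all Tac1, and Scn11a and P2rx3 read 2.60 and 2.19 in both dorsal and ventral pieces.

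Markers of several other cell types were higher in ventral than in intermediate pieces, and some of these were lowest in the intermediate ones. All 8 meningeal and fibroblast genes and 3 of 4 measured Schwann cell genes were higher in ventral than in intermediate pieces. The medians of the 2 lists were 2.72 and 3.23, and without animal 3 the counts were 6 and 2. Their summed linear levels were 17300 to 23500 and 6490 to 9610 in ventral, 3110 to 3930 and 368 to 711 in intermediate, and 13000 to 27900 and 4520 to 18400 in dorsal pieces. In intermediate against dorsal pieces, all 8 meningeal, 3 of 4 Schwann cell and all 7 microglia genes were lower. The medians were -2.52, -4.01 and -0.62, and without animal 3 the counts were 0 for each list. Between ventral and dorsal pieces 1 meningeal gene, Aldh1a2, was called higher in ventral ones, and this call was lost without any 1 of the animals. All 6 astrocyte genes, 6 of 7 endothelial and mural genes, 4 of 5 measured oligodendrocyte lineage genes and all 7 tested microglia genes were also higher in ventral than in intermediate pieces. Without animal 1 or animal 3 the endothelial count fell to 3. The astrocyte count fell to 4 without animal 1, and the microglia count to 4 without animal 3. Against dorsal pieces, 6 astrocyte, 6 endothelial (3 without animal 3) and 4 oligodendrocyte genes were higher, Mog by 3.26 ± 0.21, while the microglia median was 0.15. Of the bone and cartilage markers 3 of 5 tested were higher in ventral than in dorsal pieces, led by the protease gene Ctsk (1.75 ± 0.08), and 1 without animal 3. All 7 neutrophil genes with a probe set were at the floor, and the 4 tested muscle genes had a median of -0.01. The part of these cells in the ventral values of the members was not tested.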

How the data were processed

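RNA (500 ng per sample, per the labels' protocols) of 9 spinal cord pieces was measured on Affymetrix arrays. The deposited values were read as log2 from their range of 2.146 to 16.27. Their scale, summarisation and normalization are not given in the sources used here, and they were used without further scaling. Of 45037 probe sets, 34945 had 1 gene symbol in the platform annotation, 932 several and 9160 none. The brightest probe set stood for each of 18193 genes, and 13959 with a mean at or above the 30th percentile were tested. limma 3.58.1 in R 4.3.3 fitted region with animal as a block, since the 3 pieces of a number come from 1 animal per the labels; deviations of same-animal arrays correlated at -0.066 to 0.246 (mean 0.081, 9 pairs), those of different animals at -0.18 to 0.161. Animals were the replicates, and no 2 arrays were identical. The script was tested on simulated data. The genes and lists were chosen with earlier results of these data known. Named were all members, Chat, Slc18a3, Slc5a7 and Mnx1, up to 4 called genes of each list with the largest ventral minus dorsal difference, and the 3 genes nearest to each member. Otp, Ppargc1a, Nos1, Wnt7a and the genes given at the floor or as not passing were also described, Gata2, Nos1, Igfbp5, Isl2, Lhx4 and Wnt7a after their values were seen. Alternatives were no block, other filters, another probe set rule, other scalings, other moderation and left-out arrays or animals. Array number limits the precision. Promoters were read with Python 3.11.15.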

Additional observations from a re-analysis of the deposited data

How the results depend on the processing

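Over 477 alternative values of single genes in single region pairs, 452 kept their direction and their side of the threshold, 2 lost the call (Chodl, intermediate against dorsal, without animal 1 or 2), 11 gained one and 12 changed sign. The sign changes, none of them called, came from left-out arrays or animals: Mmp9 between ventral and dorsal pieces ran from -0.13 to 0.22, Isl1 between ventral and intermediate pieces from -0.27 to 0.19, and Esrrb between intermediate and dorsal pieces from -0.0436 to 0.0666. The number of genes called was 6 to 7 for ventral against dorsal, 4 to 5 for ventral against intermediate and 3 to 6 for intermediate against dorsal pieces. Without the replicate block, 7, 4 and 5 genes and 9 probe sets were called, the added ones being Esrrb (0.24, adjusted p = 0.0466) and Calcb (0.60, adjusted p = 0.0418); all p-values here are limma's. Over all genes, the intermediate against dorsal calls fell from 30.1% to between 10.5% and 17.6% without 1 animal, and centring arrays on their medians moved the share of these calls that were higher from 52.8% to 67.7%. The filter at the 50th percentile leaves out Esrrb. With it, 66.6% of all genes tested were called between ventral and dorsal pieces, and 35.5% were called higher. Near the floor (Esrrb, dorsal Isl1) signal over background limits what can be read, and the cause of the changes was not tested.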
